A study of Mus musculus with 8 samples.

Results

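Translation initiation factors were followed at the transcript level in a mouse pre-B cell line before and after its conversion towards macrophage-like cells. The genes were taken by name: every non-control probe whose gene name in the scanner files began with Eif followed by a digit from 1 to 6. This gave 86 of 39429 non-control probes, standing for 58 genes. The set holds the factors that bind the small ribosomal subunit, initiator tRNA and the mRNA cap, the Eif2ak kinases that phosphorylate eIF2, and the Eif4ebp repressors of cap binding. It also holds the 4 Argonaute genes, which the array files list under their older names Eif2c1 to Eif2c4. Argonautes bind small RNAs and are not initiation factors, so they are described apart. Of the 86 probes, 80 passed a filter on dim signal, and 55 of the 58 genes were tested among 16151 genes, 52 of them initiation factors and 3 Argonautes. Eif4e1b, Eif5b and Ago3 were not tested, because their probes were well above background on 0, 2 and 1 of the 8 arrays. The probe standing for each of the 55 tested genes was well above background on all 8 arrays.

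The cells were C10, a pre-B line derived from the HAFTL line, in which the transcription factor C/EBPα can be switched on. A line labelled Tet2 knockdown (Tet2KD), which expressed a short hairpin RNA against Tet2, and a Control line, which expressed a control short hairpin RNA, were each measured after 24 h of induction and before it (0 h). Cells were induced by adding β-estradiol at 100 nM together with the cytokines IL-3 and M-CSF, both used at 10 ng/ml, and all cells were kept in puromycin. With 2 arrays in each of 4 groups, the arrays are described as technical duplicates of a single line, so the p-values cover the spread of duplicates only, and separate cultures may differ by more. Every array was a 1-colour Agilent mouse array. A level below is the processed signal divided by the array's own 75th percentile of signal. Levels can be compared between arrays for 1 probe, not between probes. A gene was called when its limma adjusted p was under 0.05 and its change at least 2-fold. A gene said to have risen or fallen passed the adjusted p at any fold. Where the arrays of groups are said not to overlap, this describes 2 arrays against 2. The share of all genes without overlap was not counted.

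In eukaryotic initiation, eIF2 with GTP brings the initiator methionyl-tRNA to the small ribosomal subunit, helped by eIF1, eIF1A, eIF3 and eIF5, while eIF4E, eIF4G and the helicase eIF4A hold and unwind the capped 5′ end of the mRNA. The supply of active eIF2 is set by eIF2B, which reloads it with GTP, and by 4 kinases that phosphorylate the eIF2 α subunit and so block eIF2B. Cap binding is held back by the 4E-BP proteins, which mTORC1 phosphorylates. Proliferating cells keep initiation capacity high, and macrophages use the eIF2 kinases and cap-binding control in infection and stress.

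Promoters of 3 members are shown because they carry a match to a motif of the interferon response or of the C/EBP family and belong to genes that were called: Eif2ak2 (the kinase PKR), Eif2s1 (the α subunit of eIF2) and Eif4e (the cap-binding protein). Each is a 300-base RefSeq window of build GRCm38.p6, 250 bases before the annotated start and 50 of the transcript after it, written 5′ to 3′ on the gene's strand, with the match in capitals.
Eif2ak2 promoter (chr17:78882523-78882822, minus strand): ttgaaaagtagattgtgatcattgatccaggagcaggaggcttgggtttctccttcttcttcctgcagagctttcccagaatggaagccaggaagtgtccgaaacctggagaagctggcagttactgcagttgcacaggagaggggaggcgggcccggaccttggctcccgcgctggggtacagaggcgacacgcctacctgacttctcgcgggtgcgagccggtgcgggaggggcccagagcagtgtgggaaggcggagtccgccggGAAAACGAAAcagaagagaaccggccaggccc
Eif2s1 promoter (chr12:78861822-78862121, plus strand): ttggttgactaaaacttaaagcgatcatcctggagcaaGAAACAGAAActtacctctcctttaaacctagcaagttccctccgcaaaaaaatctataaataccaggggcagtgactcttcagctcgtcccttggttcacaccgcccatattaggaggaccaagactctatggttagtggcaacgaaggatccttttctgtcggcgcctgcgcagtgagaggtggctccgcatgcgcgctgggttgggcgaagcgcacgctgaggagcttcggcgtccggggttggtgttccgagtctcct
Eif4e promoter (chr3:138525941-138526240, plus strand): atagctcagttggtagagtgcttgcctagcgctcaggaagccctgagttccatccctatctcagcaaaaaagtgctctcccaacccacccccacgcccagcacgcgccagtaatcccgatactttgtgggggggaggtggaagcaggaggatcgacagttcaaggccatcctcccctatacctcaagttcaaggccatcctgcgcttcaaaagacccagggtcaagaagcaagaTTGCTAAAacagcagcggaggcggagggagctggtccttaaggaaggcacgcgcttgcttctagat
The capitals mark GAAA, any 2 bases and GAAA again in Eif2ak2 (bases 269 to 278 of the window) and Eif2s1 (bases 39 to 48), the core of an interferon-stimulated response element. In Eif4e they mark TTGCNNAA (bases 235 to 242), a C/EBP-like motif. The motifs were searched on both strands in the first listed promoter of each gene. Of the 55 tested members 44 had one, and in none of them did matches of different motifs overlap. The GAAA pair was found in 4 of those 44 windows (9.09%) and in 3.49% of 27025 promoters, with Eif2s3x and Eif3a as the other 2 members. TTGCNNAA was found in 4 of 44 (9.09%) and in 10.8% of all promoters, and the E-box CACGTG, the motif of the MYC family, in 8 of 44 (18.2%) and in 7.24% of all promoters. Of the members with a window, CACGTG was found in 0 of the 5 called lower and 0 of the 2 called higher. A run of C and 4 pyrimidines at the annotated start, the form of a 5′ terminal oligopyrimidine tract, was found in Eif2s3x and Eif3f, 2 of 44 members (4.55%) against 2.49% of all promoters. A match is a description of these letters and shows no binding.

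Several genes had more than 1 kept probe. The first 30 bases of the 60-base probes of 4 such genes are shown in lower case, because their probes lie at different places of the transcript and differ in sign or size of change. Positions are those of the array files, build mm9.
Ago2 brighter probe (chr15:72935705-72935764, minus strand): acgagccttctcttgtgtgctgctctgtgc
Ago2 dimmer probe (chr15:72936863-72936922, minus strand): catgaaagccacaccatttccattggggtt
Eif4e2 brighter probe (chr1:89122748-89122807, plus strand): gcgtgcttaacctacctcccaacaccatta
Eif4e2 dimmer probe (chr1:89125366-89125425, plus strand): gcatggagagtttcaacaagctttgttagc
Eif1ad brighter probe (chr19:5370188-5370247, plus strand): caaagatggcccctttctgaactgacctaa
Eif1ad dimmer probe (chr19:5371355-5371414, plus strand): ttttgaacaaatcttatgatcataccctct
Eif4e brighter probe (chr3:138219236-138219295, plus strand): caccataattacattcctaactagaattag
Eif4e dimmer probe (chr3:138220427-138220486, plus strand): gaggctttcttaccaacatgtgggattcta
The brightest kept probe stands for each gene. In Ago2 it is the probe nearer the 3′ end of the transcript, and in Eif4e2, Eif1ad and Eif4e it is the probe farther from it. The exon or UTR that each probe lies in was not analysed here.

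The arrays had 47.4% to 55.6% of 43020 non-control spots well above background, none saturated, and a 75th percentile of 722 to 1435 intensity units. Duplicate arrays correlated at 0.998 to 0.999 over the members. The transcript that the hairpin targets, Tet2, read 0.952 and 1.04 at 24 h in the Tet2KD-labelled line against 0.98 and 1 in the Control line, and 0.35 and 0.406 at 0 h against 0.425 and 0.389. The groups overlapped at both times: its log2 difference from the Control line was 0.01 at 24 h (adjusted p = 0.98) and -0.11 at 0 h (adjusted p = 0.53), so every direction between the lines below rests on the labels. The induction turned the marker genes of both cell types. The summed levels below add probes of unlike brightness, so each sum mostly follows its brightest probes. Of 9 macrophage markers, 8 were called higher in each line, and their summed level was 1067 to 1173 at 24 h against 15.3 to 17.1 at 0 h in the Tet2KD-labelled line and 1142 to 1221 at 24 h against 16.9 to 17 at 0 h in the Control line. Fcgr1, among them, was not well above background at 0 h in either line. Of 12 pre-B markers, 6 were called lower in the Tet2KD-labelled line and 8 in the Control line, with summed levels of 402 to 421 at 24 h against 527 to 603 at 0 h in the Tet2KD-labelled line and of 291 to 316 at 24 h against 556 to 597 at 0 h in the Control line. The median log2 difference of the 12 pre-B markers was -1.11 in the Tet2KD-labelled line and -1.4 in the Control line. All 6 proliferation genes were called lower in both lines, with summed levels of 11.8 to 12.3 at 24 h against 225 to 227 at 0 h in the Tet2KD-labelled line and of 14.5 to 14.7 at 24 h against 181 to 187 at 0 h in the Control line. Of the other cell types, Cd4, of 3 tested T-cell markers, and Sparc and Pdgfrb, of 3 tested stromal markers, were called higher in each line, and the erythroid marker Hba-a1 passed in neither. The summed T-cell level was 3.64 to 5.38 at 24 h against 1.89 to 2.62 at 0 h in the Tet2KD-labelled line and 3.09 to 4.56 at 24 h against 2.17 to 2.41 at 0 h in the Control line. Pdgfrb was not well above background at 0 h in either line, so its rise has only a bound, at least 5-fold in the Tet2KD-labelled line and at least 9.87-fold in the Control line. The summed stromal level was 6.92 to 6.98 against 0.163 to 0.208 in the Tet2KD-labelled line and 10.2 to 10.3 against 0.63 to 0.666 in the Control line at the same times, and that of the erythroid marker was at most 0.0369. Adgre1, Cd3g, Cd8a, Klf1, Alas2, Col1a1 and Col3a1 were not well above background. These markers moved with every induction result below, and their part in those results was not tested. In cells measured in bulk and scaled to 1 percentile per array, fewer cells expressing a gene and less of its RNA per cell cannot be told apart.

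After 24 h of induction most initiation factor transcripts were lower in both lines, by small amounts. In the Tet2KD-labelled line, 32 of 55 members (58.2%) fell and 9 (16.4%) rose at an adjusted p under 0.05, where 32% of all genes tested fell and 36.2% rose. In the Control line, 31 members (56.4%) fell and 8 (14.5%) rose, where 31.1% of all genes fell and 30.7% rose. The median log2 difference of the members was -0.42 in the Tet2KD-labelled line, against 0.14 for all genes, and -0.34 in the Control line, against 0.00. Few of these changes reached 2-fold: 6 members (10.9%) were called lower and 4 (7.27%) higher in the Tet2KD-labelled line, where 15.4% and 16.7% of all genes were, and 1 (1.82%) was called lower and 3 (5.45%) higher in the Control line, where 13.1% and 14.2% were. The median standard error was 0.08 for the members and 0.10 for all genes, so a change of a given size passed the adjusted p more readily among the members.

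Eif2ak2, Eif4e3 and Ago2 were called higher in both lines, and Ago4 in the Tet2KD-labelled line. Eif2b3 was called lower in both lines. Eif1ad, Eif2s1, Eif3j1, Eif4a3 and Eif4e were called lower in the Tet2KD-labelled line and fell by less than 2-fold in the Control line. Scaled on each array's median, 11 members were called lower and 4 higher in the Tet2KD-labelled line, and 2 lower and 3 higher in the Control line. The shares of all genes called or passing under that scaling were not counted, so its counts describe the members only. That scaling moved the median of all genes to -0.11 in both inductions, and the members' median lay below it by 0.56 in the Tet2KD-labelled line and by 0.34 in the Control line. These distances equal those under the 75th percentile by construction, because each scaling shifts all genes of an array by the same amount. At the adjusted p alone it left 19 members lower and 4 higher in the Control line, and 32 lower and 4 higher in the Tet2KD-labelled line. No 2-fold call was lost when any single array was left out. At any fold, 27 of the 32 that fell and 7 of the 9 that rose in the Tet2KD-labelled line stayed under 0.05, as did 22 of 31 and 6 of 8 in the Control line. The exceptions were Eif3d, Eif3e, Eif3g, Eif3l and Eif4b, with Eif3k and Eif4g3, in the Tet2KD-labelled line, and Eif2ak3, Eif2s3x, Eif3b, Eif3c, Eif3e, Eif4b, Eif4h, Eif5 and Eif5a, with Eif4e2 and Eif4ebp1, in the Control line.

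**Figure D1:**
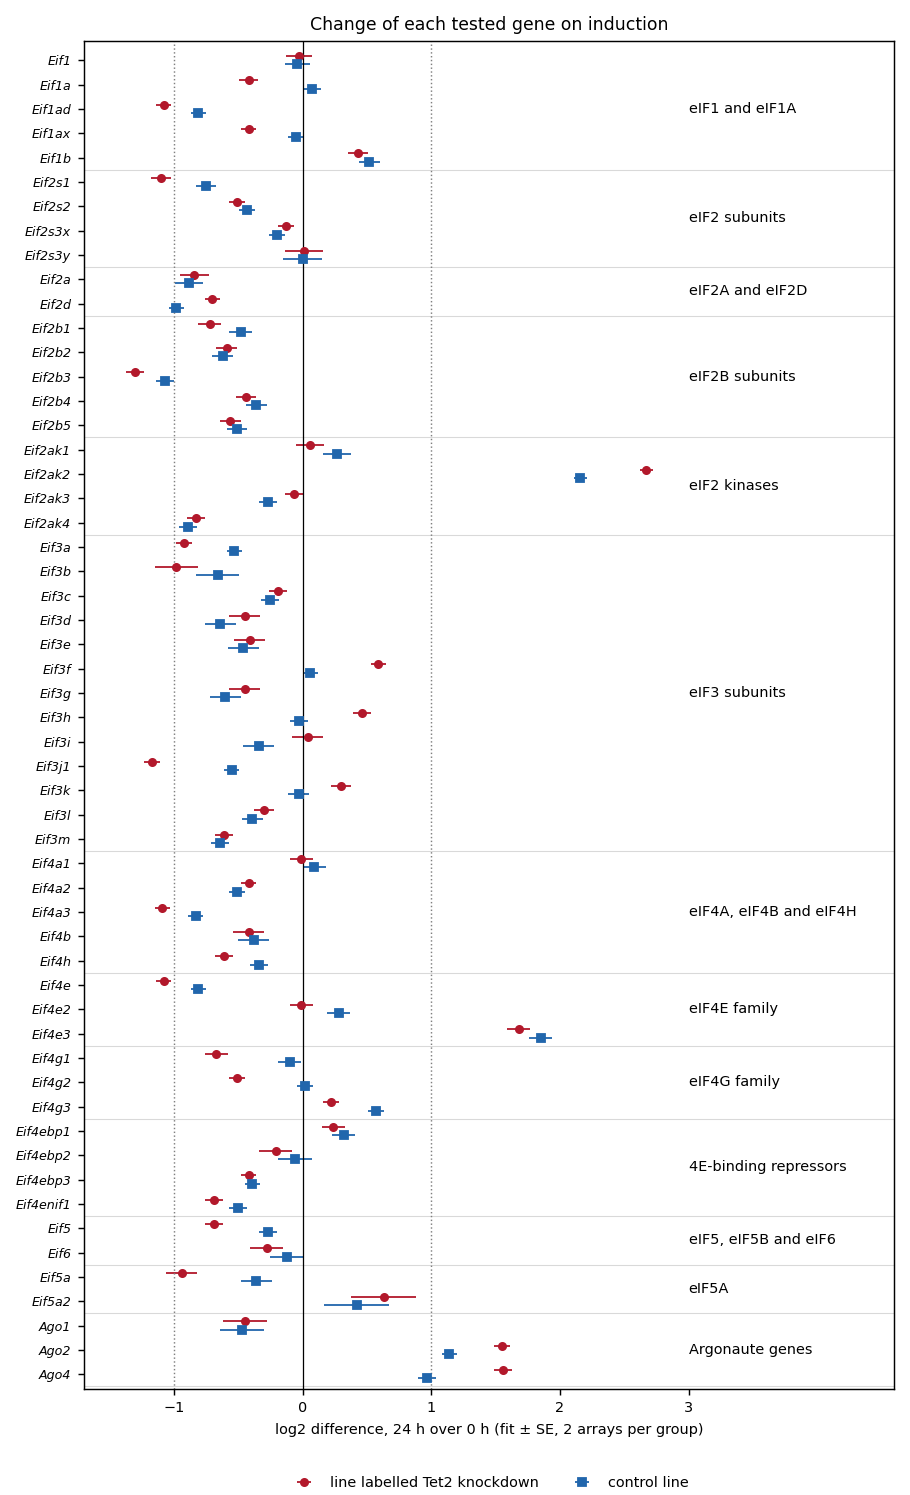
Log2 difference between 24 h and 0 h (x axis) of each of the 55 tested genes (rows, by role), with red circles for the Tet2KD-labelled line, blue squares for the Control line and bars of 1 SE; dotted lines mark 2-fold. Most points lie left of 0, with a median of -0.42 in the Tet2KD-labelled line and -0.34 in the Control line, and Eif2ak2 lies farthest right, at 2.67 in the Tet2KD-labelled line and 2.16 in the Control line.

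Of the 4 genes for subunits of eIF2, which carries the initiator tRNA, 2 fell in the Tet2KD-labelled line and 3 in the Control line, and none rose. Eif2s1, the α subunit that the stress kinases phosphorylate, read 12 and 12.3 at 24 h against 26.3 and 25.6 at 0 h in the Tet2KD-labelled line. Control arrays read 14 and 13.8 at 24 h against 25 and 21.7 at 0 h. Both induced groups lay below both starting groups with no overlap, and Eif2s1 had a log2 difference of -1.10 (SE 0.08, adjusted p = 8.8e-05) in the Tet2KD-labelled line and -0.75 (SE 0.08, adjusted p = 0.00049) in the Control line. Eif2s2, the β subunit that binds eIF5 and eIF2B, read 42.1 and 43.5 at 24 h against 62.5 and 59.7 at 0 h in the Tet2KD-labelled line. Control arrays read 43.8 and 41.2 at 24 h against 58 and 56.5 at 0 h. It fell in both lines, by less than 2-fold, with log2 differences of -0.51 in the Tet2KD-labelled line and -0.43 in the Control line. Eif2s3x, the X-linked copy of the γ subunit that binds GTP and the tRNA, read 2.44 and 2.52 at 24 h against 2.66 and 2.78 at 0 h in the Tet2KD-labelled line. Control arrays read 2.81 and 2.63 at 24 h against 3.14 and 3.11 at 0 h. Its fall passed the adjusted p in the Control line, with a log2 difference of -0.20 (SE 0.06, adjusted p = 0.034), and did not in the Tet2KD-labelled line (-0.13, SE 0.06, adjusted p = 0.1). Eif2s3x did not pass in the Control line without Tet2KD 24 h replicate 1 or 2 or Control 24 h replicate 1 or 2 or Control 0 h replicate 1 or 2, with adjusted p of 0.051 to 0.17. Its second kept probe fell in both lines, with log2 differences of -0.72 in the Tet2KD-labelled line and -0.61 in the Control line. Its Y-linked copy Eif2s3y read 0.978 and 1.22 at 24 h against 1.01 and 1.17 at 0 h in the Tet2KD-labelled line, and 1.02 and 1.19 at 24 h against 1.04 and 1.18 at 0 h in the Control line, with overlapping groups and log2 differences of 0.01 in the Tet2KD-labelled line and 0.00 in the Control line. The X and Y copies are near-identical in sequence, so a share of each probe's signal may come from the other.

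Eif2a and Eif2d, which can deliver initiator tRNA without eIF2 in special contexts, fell in both lines. Eif2a read 1.81 and 1.45 at 24 h against 2.88 and 2.92 at 0 h in the Tet2KD-labelled line, and 1.82 and 1.7 at 24 h against 3.24 and 3.24 at 0 h in the Control line, with log2 differences of -0.84 in the Tet2KD-labelled line and -0.88 in the Control line. Eif2d read 1.29 and 1.23 at 24 h against 2.05 and 2.03 at 0 h in the Tet2KD-labelled line. Control arrays read 1.12 and 1.07 at 24 h against 2.19 and 2.13 at 0 h. The induced arrays of both genes were below the starting arrays in each line, and Eif2d had a log2 difference of -0.70 (SE 0.06, adjusted p = 0.00015) in the Tet2KD-labelled line and -0.98 (SE 0.06, adjusted p = 4.7e-05) in the Control line. Its level at 24 h in the Control line was 0.508 times that at 0 h, just short of the 2-fold minimum.

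All 5 subunits of eIF2B, the exchange factor that reloads eIF2 with GTP, fell in both lines. Eif2b3, the γ subunit of its catalytic part, read 1.74 and 1.85 at 24 h against 4.41 and 4.44 at 0 h in the Tet2KD-labelled line. Control arrays read 2.09 and 2 at 24 h against 4.48 and 4.1 at 0 h. The induced levels were below 50% of the mean starting level on every array, with a log2 difference of -1.30 (SE 0.07, adjusted p = 2.7e-05) in the Tet2KD-labelled line and -1.07 (SE 0.07, adjusted p = 6.5e-05) in the Control line. Eif2b5, the catalytic ε subunit, read 3.39 and 3.25 at 24 h against 5.08 and 4.74 at 0 h in the Tet2KD-labelled line, and 3.41 and 3.36 at 24 h against 5.12 and 4.54 at 0 h in the Control line, with log2 differences of -0.56 in the Tet2KD-labelled line and -0.51 in the Control line. The regulatory subunits sense phosphorylated eIF2. Eif2b1 (α) read 5.29 and 4.73 at 24 h against 8.61 and 7.87 at 0 h in the Tet2KD-labelled line. Control arrays read 5.36 and 5.26 at 24 h against 7.8 and 7.05 at 0 h. Eif2b2 (β) read 22.6 and 22.8 at 24 h against 35.3 and 33.2 at 0 h in the Tet2KD-labelled line. Control arrays read 21.9 and 20.3 at 24 h against 34.1 and 30.9 at 0 h. Eif2b4 (δ) read 8.38 and 8.64 at 24 h against 11.7 and 11.4 at 0 h in the Tet2KD-labelled line. Control arrays read 8.59 and 7.49 at 24 h against 10.4 and 10.2 at 0 h. In none of these genes did the 24 h and 0 h arrays of a line overlap. How many of all genes were separated in this way was not counted. The log2 differences of the 3 regulatory subunits lay between -0.72 and -0.44 in the Tet2KD-labelled line and between -0.62 and -0.36 in the Control line. Scaled on the array median, 5 of 5 still fell in the Tet2KD-labelled line and 3 of 5 in the Control line.

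Of the 4 eIF2 kinases, each tied to another stress, Eif2ak2 rose and Eif2ak4 fell in both lines. Eif2ak2, which encodes PKR, the kinase activated by double-stranded RNA, had the largest rise of the 55 members in both lines. It read 3.54 and 3.59 at 24 h against 0.556 and 0.567 at 0 h in the Tet2KD-labelled line. Control arrays read 2.01 and 2.02 at 24 h against 0.447 and 0.456 at 0 h. The duplicates lay close together and the groups did not overlap, with a log2 difference of 2.67 (SE 0.05, adjusted p = 1e-06) in the Tet2KD-labelled line and 2.16 (SE 0.05, adjusted p = 2.3e-06) in the Control line, changes of 6.36-fold in the Tet2KD-labelled line and 4.46-fold in the Control line. Eif2ak4, which encodes GCN2, the kinase activated by uncharged tRNA, read 2.42 and 2.33 at 24 h against 4.4 and 4.06 at 0 h in the Tet2KD-labelled line. Control arrays read 2.42 and 2.29 at 24 h against 4.45 and 4.27 at 0 h. It fell in both lines, with log2 differences of -0.83 (SE 0.07, adjusted p = 0.00015) in the Tet2KD-labelled line and -0.89 (SE 0.07, adjusted p = 0.00013) in the Control line. Eif2ak3, which encodes PERK, the kinase of the endoplasmic reticulum stress response, read 1.24 and 1.28 at 24 h against 1.31 and 1.32 at 0 h in the Tet2KD-labelled line. Control arrays read 1.05 and 1.07 at 24 h against 1.36 and 1.21 at 0 h. It fell in the Control line (-0.27, SE 0.07, adjusted p = 0.021) and its difference in the Tet2KD-labelled line was -0.07 (SE 0.07, adjusted p = 0.46). The Control value of Eif2ak3 did not pass without Control 24 h replicate 1 or 2 or Control 0 h replicate 1, with adjusted p of 0.073 to 0.09. Eif2ak1, which encodes the haem-regulated kinase HRI, read 0.558 and 0.479 at 24 h against 0.519 and 0.471 at 0 h in the Tet2KD-labelled line, and 0.576 and 0.526 at 24 h against 0.473 and 0.442 at 0 h in the Control line, and neither difference passed, at 0.06 (SE 0.11, adjusted p = 0.61) in the Tet2KD-labelled line and 0.27 (SE 0.11, adjusted p = 0.072) in the Control line.

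**Figure D2:**
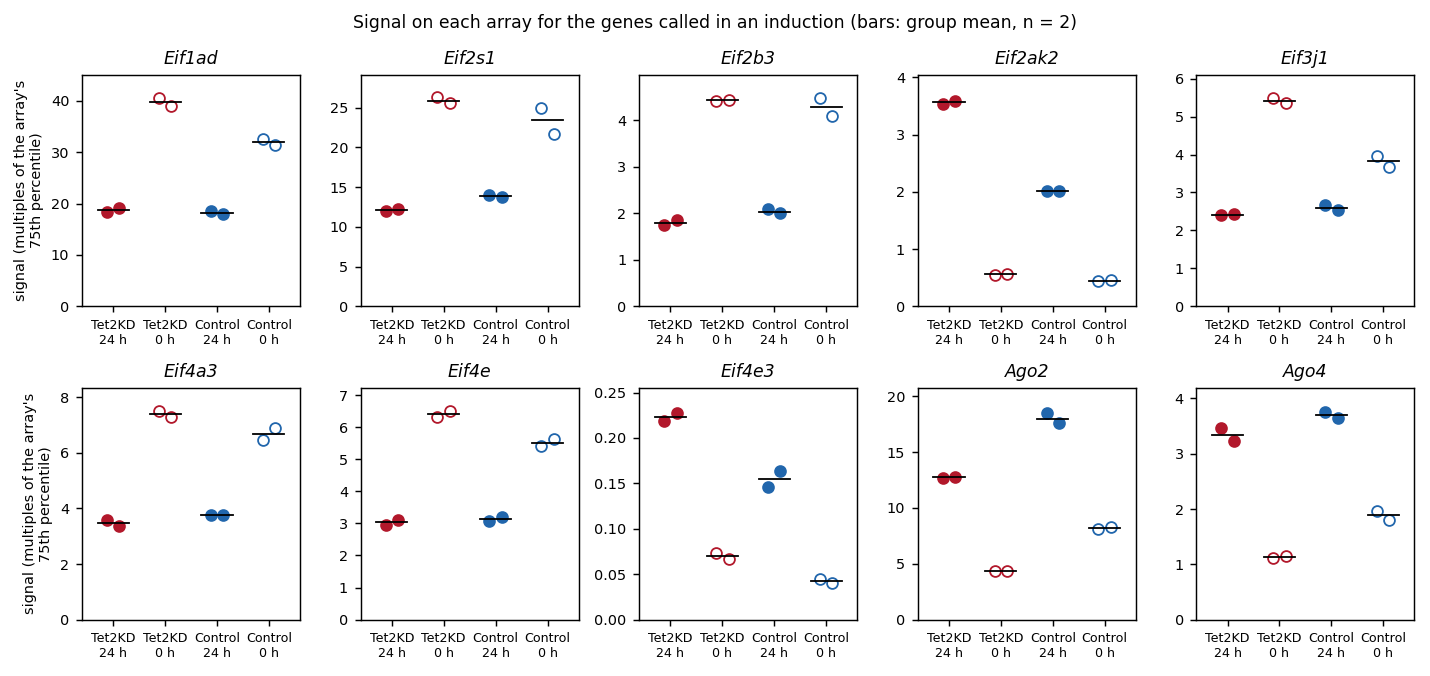
Level of each of the 10 members called in an induction (y axes, multiples of the array's 75th percentile, each from 0) on the 8 arrays, in the order Tet2KD-labelled line at 24 h and 0 h and Control line at 24 h and 0 h; bars are means of 2 arrays. Filled points (24 h) and open points (0 h) do not overlap within a line in any panel, and Eif2ak2 stands at 3.54 and 3.59 against 0.556 and 0.567 in the Tet2KD-labelled line. The genes were chosen by calls over these same arrays, so the separation was largely set in advance.

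Of the 5 genes for factors that select the start codon on the scanning small subunit, or resemble them, 3 fell and 1 rose in the Tet2KD-labelled line, and 1 fell and 1 rose in the Control line. Eif1, which guards against wrong start codons, read 113 and 103 at 24 h against 117 and 104 at 0 h in the Tet2KD-labelled line. Control arrays read 99.3 and 93.4 at 24 h against 106 and 92.6 at 0 h. Its groups overlapped and its log2 differences were -0.03 in the Tet2KD-labelled line and -0.04 in the Control line. Its paralog Eif1b read 9.67 and 9.28 at 24 h against 7.28 and 6.77 at 0 h in the Tet2KD-labelled line, and 9.78 and 9.05 at 24 h against 6.81 and 6.3 at 0 h in the Control line and rose in both lines, with log2 differences of 0.43 (SE 0.08, adjusted p = 0.0039) in the Tet2KD-labelled line and 0.52 (SE 0.08, adjusted p = 0.0019) in the Control line. Scaled on the array median, neither rise passed. Eif1a and Eif1ax encode near-identical forms of eIF1A, which stabilises the scanning complex, so their probes may share signal. Eif1a read 7.79 and 8.31 at 24 h against 10.9 and 10.6 at 0 h in the Tet2KD-labelled line. Control arrays read 9.3 and 9.04 at 24 h against 9.1 and 8.43 at 0 h. Eif1ax read 20.1 and 20.9 at 24 h against 28 and 26.9 at 0 h in the Tet2KD-labelled line. Control arrays read 25.4 and 25.6 at 24 h against 27.4 and 25.6 at 0 h. Both fell in the Tet2KD-labelled line, with log2 differences of -0.42 for Eif1a and -0.42 for Eif1ax, and overlapped between the times in the Control line. Eif1ad, named for its eIF1A-like domain, read 18.4 and 19.2 at 24 h against 40.6 and 39 at 0 h in the Tet2KD-labelled line, and 18.5 and 17.9 at 24 h against 32.5 and 31.4 at 0 h in the Control line, with a log2 difference of -1.08 (SE 0.06, adjusted p = 2.7e-05) in the Tet2KD-labelled line and -0.81 (SE 0.06, adjusted p = 9.5e-05) in the Control line.

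The 13 subunits of eIF3, the scaffold that joins the small subunit to the mRNA and blocks early joining of the large subunit, moved both ways: 8 fell and 3 rose in the Tet2KD-labelled line, and 9 fell and none rose in the Control line. Without Tet2KD 0 h replicate 1 or without Tet2KD 24 h replicate 2 the number that fell in the Tet2KD-labelled line was 4. With no filter on dim probes, 4 fell in the Tet2KD-labelled line and 5 in the Control line. Eif3a and Eif3b form the core that holds the complex together. Eif3a read 4.68 and 4.93 at 24 h against 9.01 and 9.18 at 0 h in the Tet2KD-labelled line, and 5.84 and 5.89 at 24 h against 8.53 and 8.37 at 0 h in the Control line, with a log2 difference of -0.92 (SE 0.06, adjusted p = 4.1e-05) in the Tet2KD-labelled line and -0.53 (SE 0.06, adjusted p = 0.00046) in the Control line. Eif3b read 5.78 and 8.21 at 24 h against 14.1 and 13.1 at 0 h in the Tet2KD-labelled line, and 8.04 and 7.97 at 24 h against 13.5 and 11.9 at 0 h in the Control line, with a log2 difference of -0.98 (SE 0.17, adjusted p = 0.0035) in the Tet2KD-labelled line and -0.66 (SE 0.17, adjusted p = 0.018) in the Control line. Its duplicates at 24 h in the Tet2KD-labelled line stood apart, and its standard error was above that of Eif3a. The Control value of Eif3b did not pass without Control 24 h replicate 1 or 2 or Control 0 h replicate 1, with adjusted p of 0.066 to 0.089.

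Eif3j1, for the loosely bound subunit j, read 2.4 and 2.43 at 24 h against 5.5 and 5.35 at 0 h in the Tet2KD-labelled line. Control arrays read 2.66 and 2.54 at 24 h against 3.95 and 3.68 at 0 h. The 0 h level was higher in the Tet2KD-labelled line, and at 24 h the lines lay close together. It had a log2 difference of -1.17 (SE 0.06, adjusted p = 2.6e-05) in the Tet2KD-labelled line and -0.55 (SE 0.06, adjusted p = 0.00061) in the Control line. Mouse has a second copy of this gene, and transcripts of either could bind these probes. Eif3m read 13 and 13.9 at 24 h against 19.7 and 21.3 at 0 h in the Tet2KD-labelled line, and 13.2 and 13.7 at 24 h against 20.9 and 21 at 0 h in the Control line, and fell in both lines, with log2 differences of -0.61 in the Tet2KD-labelled line and -0.64 in the Control line. Eif3c, a core subunit, read 84.5 and 79.3 at 24 h against 92.5 and 93.9 at 0 h in the Tet2KD-labelled line, and 86.8 and 80.6 at 24 h against 103 and 95.7 at 0 h in the Control line, and fell in the Control line (-0.25, SE 0.07, adjusted p = 0.029) but not past the adjusted p in the Tet2KD-labelled line (-0.19, SE 0.07, adjusted p = 0.064). Eif3c did not pass in the Control line without Control 24 h replicate 2 or Control 0 h replicate 1, with adjusted p of 0.13 to 0.14.

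Subunits d, e, g and l fell in both lines. Eif3d, which can itself bind the caps of some mRNAs, read 64 and 63.2 at 24 h against 94.6 and 79.5 at 0 h in the Tet2KD-labelled line. Control arrays read 60.3 and 54.1 at 24 h against 96 and 82 at 0 h. Eif3e, which touches eIF4G, read 9.37 and 8.26 at 24 h against 12.8 and 10.6 at 0 h in the Tet2KD-labelled line. Control arrays read 9.48 and 8.83 at 24 h against 12.7 and 12.5 at 0 h. Eif3g, which binds RNA, read 75.8 and 69.8 at 24 h against 105 and 93.3 at 0 h in the Tet2KD-labelled line. Control arrays read 71.7 and 63.1 at 24 h against 111 and 93.3 at 0 h. Within each line no induced array of these genes reached a starting array, a separation not counted over all genes. Eif3l read 56.5 and 56.4 at 24 h against 73.7 and 65.5 at 0 h in the Tet2KD-labelled line. Control arrays read 54.9 and 51.2 at 24 h against 71.1 and 67.4 at 0 h. The log2 differences of the 4 genes lay between -0.45 and -0.30 in the Tet2KD-labelled line and between -0.64 and -0.39 in the Control line, with adjusted p between 0.019 and 0.023 in the Tet2KD-labelled line and between 0.0057 and 0.016 in the Control line. The Tet2KD-labelled value of Eif3d did not pass without Tet2KD 24 h replicate 1 or 2 or Tet2KD 0 h replicate 1, with adjusted p of 0.07 to 0.09. The Tet2KD-labelled value of Eif3e did not pass without Tet2KD 24 h replicate 2 or Tet2KD 0 h replicate 1, with adjusted p of 0.089 to 0.11. The Tet2KD-labelled value of Eif3g did not pass without Tet2KD 24 h replicate 2 or Tet2KD 0 h replicate 1, with adjusted p = 0.1. The Tet2KD-labelled value of Eif3l did not pass without Tet2KD 24 h replicate 1 or 2 or Tet2KD 0 h replicate 1, with adjusted p of 0.07 to 0.083. Eif3e did not pass in the Control line without Control 24 h replicate 2 or Control 0 h replicate 1 or 2, with adjusted p of 0.058 to 0.078.

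Subunits f, h and k rose in the Tet2KD-labelled line. Eif3f, which pairs with Eif3h in the octamer of the complex, read 47.6 and 47.6 at 24 h against 32.2 and 30.9 at 0 h in the Tet2KD-labelled line, and 39.5 and 40.1 at 24 h against 39.4 and 36.8 at 0 h in the Control line, with a log2 difference of 0.59 (SE 0.06, adjusted p = 0.00034) in the Tet2KD-labelled line and 0.06 (SE 0.06, adjusted p = 0.41) in the Control line. Eif3h read 187 and 185 at 24 h against 138 and 131 at 0 h in the Tet2KD-labelled line, and 162 and 150 at 24 h against 166 and 153 at 0 h in the Control line, with a log2 difference of 0.46 (SE 0.07, adjusted p = 0.0023) in the Tet2KD-labelled line and -0.03 (SE 0.07, adjusted p = 0.77) in the Control line. For both, the Tet2KD-labelled line read below the Control line at 0 h and above it at 24 h. For Eif3h neither line difference passed, at -0.24 at 0 h (adjusted p = 0.092) and 0.25 at 24 h (adjusted p = 0.081). Over the alternatives these 2 differences of Eif3h reached -0.06 at 0 h and -0.02 at 24 h. Eif3k read 76.4 and 75.2 at 24 h against 65.5 and 57.8 at 0 h in the Tet2KD-labelled line, and 67.1 and 63.8 at 24 h against 69.3 and 64.4 at 0 h in the Control line, with a log2 difference of 0.30 (SE 0.08, adjusted p = 0.021) in the Tet2KD-labelled line and -0.03 (SE 0.08, adjusted p = 0.79) in the Control line. The Tet2KD-labelled value of Eif3k did not pass without Tet2KD 24 h replicate 1 or 2 or Tet2KD 0 h replicate 2, with adjusted p of 0.07 to 0.088. Scaled on the array median none of the 3 rises passed. Under normexp with quantile normalization and in the authors' deposited table the Tet2KD-labelled value was -0.02 for Eif3k (adjusted p = 0.78) and 0.02 for Eif3h (adjusted p = 0.86), and with quantile normalization of the processed signal it was 0.00 for Eif3k and 0.05 for Eif3h. The Tet2KD-labelled rise of Eif3h passed under 9 of 13 alternatives, with adjusted p between 0.00089 and 0.86. Eif3i, a WD-repeat subunit, read 21.9 and 19.6 at 24 h against 21.3 and 19 at 0 h in the Tet2KD-labelled line, and 19.9 and 18.6 at 24 h against 26.8 and 22.2 at 0 h in the Control line, and passed in neither line, at 0.04 (SE 0.12, adjusted p = 0.78) in the Tet2KD-labelled line and -0.34 (SE 0.12, adjusted p = 0.056) in the Control line.

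Of the helicase group that unwinds the 5′ leader, 4 of 5 genes fell in both lines. Eif4a1, the main helicase, read 94.5 and 97.7 at 24 h against 104 and 89.6 at 0 h in the Tet2KD-labelled line. Control arrays read 84.2 and 84.4 at 24 h against 76.3 and 82 at 0 h. Its log2 differences were -0.01 in the Tet2KD-labelled line and 0.09 in the Control line, and neither passed. Its paralog Eif4a2 read 8.27 and 8.07 at 24 h against 11.1 and 10.9 at 0 h in the Tet2KD-labelled line, and 8.13 and 7.69 at 24 h against 11.2 and 11.4 at 0 h in the Control line and fell in both lines, with log2 differences of -0.42 in the Tet2KD-labelled line and -0.51 in the Control line. Eif4a3, which marks spliced exon junctions and is not part of the cap complex, read 3.57 and 3.37 at 24 h against 7.51 and 7.28 at 0 h in the Tet2KD-labelled line, and 3.76 and 3.77 at 24 h against 6.47 and 6.88 at 0 h in the Control line, with a log2 difference of -1.09 (SE 0.06, adjusted p = 3.5e-05) in the Tet2KD-labelled line and -0.83 (SE 0.06, adjusted p = 0.00012) in the Control line. The 24 h arrays lay below the 0 h arrays in both lines. Eif4b and Eif4h stimulate the helicase. Eif4b read 13.2 and 11.4 at 24 h against 17.7 and 15.4 at 0 h in the Tet2KD-labelled line. Control arrays read 12.1 and 10.3 at 24 h against 14.4 and 14.7 at 0 h. Eif4h read 44.3 and 41.1 at 24 h against 68 and 62.3 at 0 h in the Tet2KD-labelled line. Control arrays read 45 and 43.8 at 24 h against 57.5 and 54.7 at 0 h. Both fell, with log2 differences of -0.42 in the Tet2KD-labelled line and -0.38 in the Control line for Eif4b and of -0.61 in the Tet2KD-labelled line and -0.34 in the Control line for Eif4h. The Tet2KD-labelled value of Eif4b did not pass without Tet2KD 24 h replicate 2 or Tet2KD 0 h replicate 1, with adjusted p = 0.11. Eif4b did not pass in the Control line without Control 24 h replicate 2 or Control 0 h replicate 1 or 2, with adjusted p of 0.11 to 0.17. Eif4h did not pass in the Control line without Control 24 h replicate 2 or Control 0 h replicate 1, with adjusted p of 0.054 to 0.055. In the Control line 2 of the 5 genes fell without Control 0 h replicate 1, without Control 24 h replicate 2, scaled on the array median, or with no filter on dim probes.

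Of the 3 tested cap-binding genes, Eif4e fell and Eif4e3 rose in both lines. Eif4e, the main cap-binding protein and the target of the 4E-BP repressors, read 2.94 and 3.12 at 24 h against 6.32 and 6.51 at 0 h in the Tet2KD-labelled line. Control arrays read 3.09 and 3.2 at 24 h against 5.41 and 5.63 at 0 h. The times did not overlap in either line, with a log2 difference of -1.08 (SE 0.06, adjusted p = 3.2e-05) in the Tet2KD-labelled line and -0.81 (SE 0.06, adjusted p = 0.00012) in the Control line. Eif4e3, a family member with weaker cap binding, read 0.219 and 0.227 at 24 h against 0.073 and 0.0663 at 0 h in the Tet2KD-labelled line, and 0.146 and 0.164 at 24 h against 0.0448 and 0.0409 at 0 h in the Control line. It rose in both lines, with a log2 difference of 1.68 (SE 0.09, adjusted p = 2.8e-05) in the Tet2KD-labelled line and 1.85 (SE 0.09, adjusted p = 2.3e-05) in the Control line, changes of 3.21-fold in the Tet2KD-labelled line and 3.61-fold in the Control line. Its level is dim, and under normexp with quantile normalization and in the authors' deposited table the Control value was 0.91, short of 2-fold. Eif4e2, which competes for the cap without binding eIF4G, read 22.8 and 20.9 at 24 h against 22.1 and 21.9 at 0 h in the Tet2KD-labelled line. Control arrays read 23.2 and 20.6 at 24 h against 17.5 and 18.6 at 0 h. Its groups overlapped in the Tet2KD-labelled line (-0.01, SE 0.09, adjusted p = 0.9), and it rose in the Control line (0.28, SE 0.09, adjusted p = 0.033). Eif4e2 did not pass in the Control line without Tet2KD 0 h replicate 1 or 2 or Control 24 h replicate 1 or Control 0 h replicate 1 or 2, with adjusted p of 0.056 to 0.15. Taken as the mean of its kept probes the Control value of Eif4e2 was -0.07, and in the authors' deposited table and under normexp with quantile normalization it was 0.17 and did not pass.

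Of the eIF4G scaffold genes, whose products join cap, helicase and eIF3, Eif4g1 and Eif4g2 fell in the Tet2KD-labelled line and Eif4g3 rose in both lines. Eif4g1 read 25.3 and 23.6 at 24 h against 40.2 and 37.3 at 0 h in the Tet2KD-labelled line. Control arrays read 28.3 and 27.3 at 24 h against 28.2 and 31.7 at 0 h. Its level fell in the Tet2KD-labelled line (-0.67, SE 0.09, adjusted p = 9e-04) and overlapped between times in the Control line (-0.10, SE 0.09, adjusted p = 0.35). Eif4g2, which lacks the eIF4E-binding part and serves cap-independent initiation, read 6.22 and 6.35 at 24 h against 8.76 and 9.13 at 0 h in the Tet2KD-labelled line. Control arrays read 7.8 and 8.13 at 24 h against 7.71 and 8.04 at 0 h. It too fell in the Tet2KD-labelled line (-0.51, SE 0.06, adjusted p = 0.00061), with a Control difference of 0.02 (SE 0.06, adjusted p = 0.84). Eif4g3 read 6.78 and 6.86 at 24 h against 5.77 and 5.93 at 0 h in the Tet2KD-labelled line, and 7.48 and 7.1 at 24 h against 5.07 and 4.74 at 0 h in the Control line, with log2 differences of 0.22 (SE 0.06, adjusted p = 0.023) in the Tet2KD-labelled line and 0.57 (SE 0.06, adjusted p = 0.00054) in the Control line. Its rise in the Tet2KD-labelled line did not pass when any array of that line was left out, with adjusted p of 0.06 to 0.095, and was -0.03 when scaled on the array median.

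Of the 4 genes for proteins that hold eIF4E back, 2 fell in both lines and 1 rose in the Control line, none of them by 2-fold. Eif4ebp1, the main 4E-BP, read 88.8 and 83.2 at 24 h against 72 and 73.2 at 0 h in the Tet2KD-labelled line. Control arrays read 87.7 and 75.6 at 24 h against 67.2 and 63.4 at 0 h. It rose in the Control line (0.32, SE 0.09, adjusted p = 0.025) and missed the adjusted p in the Tet2KD-labelled line (0.24, SE 0.09, adjusted p = 0.056). The Control value of Eif4ebp1 did not pass without Control 24 h replicate 1 or Control 0 h replicate 1 or 2, with adjusted p of 0.056 to 0.11. Under quantile normalization, with normexp (0.17) or on the processed signal (0.16), it did not pass either. Eif4ebp2 read 8.36 and 8.05 at 24 h against 10.9 and 8.31 at 0 h in the Tet2KD-labelled line, and 7.99 and 8.61 at 24 h against 8.79 and 8.51 at 0 h in the Control line, with overlapping groups and log2 differences of -0.21 in the Tet2KD-labelled line and -0.06 in the Control line. Eif4ebp3 read 2.02 and 2.1 at 24 h against 2.66 and 2.87 at 0 h in the Tet2KD-labelled line. Control arrays read 2.17 and 2.11 at 24 h against 2.78 and 2.84 at 0 h. Eif4enif1, which carries eIF4E into the nucleus and into RNA granules, read 1.14 and 1.21 at 24 h against 1.96 and 1.83 at 0 h in the Tet2KD-labelled line. Control arrays read 1.18 and 1.21 at 24 h against 1.73 and 1.64 at 0 h. Both fell in both lines, with log2 differences of -0.42 in the Tet2KD-labelled line and -0.39 in the Control line for Eif4ebp3 and of -0.69 in the Tet2KD-labelled line and -0.50 in the Control line for Eif4enif1.

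Eif5, whose product triggers GTP hydrolysis by eIF2 at the start codon, read 14.2 and 15.1 at 24 h against 23.9 and 23.3 at 0 h in the Tet2KD-labelled line. Control arrays read 16.3 and 15.9 at 24 h against 20.2 and 18.6 at 0 h. It fell in both lines, with log2 differences of -0.69 (SE 0.07, adjusted p = 0.00028) in the Tet2KD-labelled line and -0.27 (SE 0.07, adjusted p = 0.016) in the Control line. Eif5 did not pass in the Control line without Control 24 h replicate 1 or 2 or Control 0 h replicate 1, with adjusted p of 0.053 to 0.077. Eif6, which keeps the large subunit free, read 23.7 and 20.1 at 24 h against 27.4 and 25.7 at 0 h in the Tet2KD-labelled line, and 23.8 and 20.8 at 24 h against 26.3 and 22.2 at 0 h in the Control line, and passed in neither line, at -0.28 (SE 0.13, adjusted p = 0.1) in the Tet2KD-labelled line and -0.12 (SE 0.13, adjusted p = 0.48) in the Control line. Eif5a, the hypusine-carrying factor now known for elongation and termination, read 38.2 and 32.9 at 24 h against 75.3 and 61.7 at 0 h in the Tet2KD-labelled line, and 43.4 and 42.5 at 24 h against 54.4 and 55.9 at 0 h in the Control line, with a log2 difference of -0.94 (SE 0.12, adjusted p = 9e-04) in the Tet2KD-labelled line and -0.36 (SE 0.12, adjusted p = 0.044) in the Control line. The Control value of Eif5a did not pass without Control 24 h replicate 1 or 2 or Control 0 h replicate 1 or 2, with adjusted p of 0.11 to 0.14. Its paralog Eif5a2 read 0.236 and 0.332 at 24 h against 0.162 and 0.203 at 0 h in the Tet2KD-labelled line, and 0.218 and 0.3 at 24 h against 0.172 and 0.212 at 0 h in the Control line, with duplicates far apart and no pass in either line, at 0.63 (SE 0.25, adjusted p = 0.068) in the Tet2KD-labelled line and 0.42 (SE 0.25, adjusted p = 0.2) in the Control line.

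Of the 3 tested Argonaute genes, whose proteins carry small RNAs to their targets, Ago2 and Ago4 rose in both lines. Ago2, the Argonaute that can cut its target, read 12.7 and 12.8 at 24 h against 4.34 and 4.39 at 0 h in the Tet2KD-labelled line, and 18.5 and 17.6 at 24 h against 8.08 and 8.27 at 0 h in the Control line on its brighter probe, with a log2 difference of 1.55 (SE 0.06, adjusted p = 6.4e-06) in the Tet2KD-labelled line and 1.14 (SE 0.06, adjusted p = 2.1e-05) in the Control line. Ago4 read 3.46 and 3.23 at 24 h against 1.12 and 1.15 at 0 h in the Tet2KD-labelled line, and 3.75 and 3.65 at 24 h against 1.96 and 1.81 at 0 h in the Control line, with a log2 difference of 1.56 (SE 0.07, adjusted p = 1.2e-05) in the Tet2KD-labelled line and 0.97 (SE 0.07, adjusted p = 8.5e-05) in the Control line. The 24 h arrays lay above the 0 h arrays in each line for both genes, and the Tet2KD-labelled line started below the Control line in both. Ago1 read 0.263 and 0.292 at 24 h against 0.34 and 0.42 at 0 h in the Tet2KD-labelled line, and 0.262 and 0.321 at 24 h against 0.364 and 0.441 at 0 h in the Control line, and passed in neither line, at -0.45 (SE 0.17, adjusted p = 0.058) in the Tet2KD-labelled line and -0.47 (SE 0.17, adjusted p = 0.055) in the Control line. The rise of Ago2 is that of its brighter probe. Its second probe read 2.7 and 2.77 at 24 h against 4.22 and 4.23 at 0 h in the Tet2KD-labelled line, and 3.15 and 2.79 at 24 h against 4.77 and 3.99 at 0 h in the Control line, and fell.

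Between the lines no member differed by 2-fold at a limma adjusted p under 0.05, at 24 h or at 0 h. Of all genes, 2.04% were called at 24 h, 1.04% higher and 0.997% lower. At 0 h 1.72% were, 0.328% higher and 1.39% lower. At an unadjusted p under 0.05, 13 of 55 members differed at 24 h and 19 at 0 h, where 5055 and 4951 of 16151 genes did. At 24 h, 3 members (5.45%) were higher and 4 (7.27%) lower in the Tet2KD-labelled line at the adjusted p and any fold, where 7.39% and 6.45% of all genes were. Eif2ak2 was higher by 0.83 (SE 0.05, adjusted p = 0.0015), Eif4e3 by 0.53 (SE 0.09, adjusted p = 0.022) and Eif3f by 0.26 (SE 0.06, adjusted p = 0.048). Ago2 (-0.50), Eif4g2 (-0.34), Eif1ax (-0.32) and Eif3a (-0.29) were lower. At 0 h, 7 (12.7%) were higher and 3 (5.45%) lower, where 5.91% and 7.56% of all genes were. The higher ones were Eif4e3 (0.70, SE 0.09, adjusted p = 0.011), Eif3j1 (0.51, SE 0.06, adjusted p = 0.009), Eif4g1 (0.38), Eif1ad (0.32), Eif2ak2 (0.32), Eif1a (0.30) and Eif5 (0.29). The lower ones were Ago2 (-0.91, SE 0.06, adjusted p = 0.0017), Ago4 (-0.73, SE 0.07, adjusted p = 0.0045) and Eif3f (-0.27). Of the 52 initiation factors without the Argonautes, 13.5% were higher and 1.92% lower at 0 h. At 24 h 5.77% were higher and 5.77% lower. With the slide as a replicate block 16 members passed at 0 h, 11 higher and 5 lower, and 9 at 24 h. The share of all genes passing with the block was not counted.

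These differences between the lines are small and depend on how the arrays are scaled. Scaled on the array median, none of the members passed at either time, and the genes named above kept their signs. Of those genes, Ago2 and Ago4 at 0 h and Eif2ak2 at 24 h passed whichever array was left out, and the others did not. The values of Ago2 are those of its brighter probe. Its second probe differed between the lines by -0.12 at 24 h (adjusted p = 0.52) and -0.05 at 0 h (adjusted p = 0.83), and the mean of both probes by -0.31 at 24 h and -0.48 at 0 h. With normexp the 0 h difference did not pass for Eif4e3, at 0.26 with 75th percentile scaling and 0.31 with quantile normalization, or for Eif5, at 0.13 and 0.15 in that order. The number passing at 0 h was 2 to 5, and at 24 h 1 to 5, over the 8 fits that each left out an array.

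Whether the induction itself differed between the lines was tested as an interaction, the induction of the Tet2KD-labelled line minus that of the Control line. No member passed with a 2-fold difference in limma, where 3.82% of all genes did, 2.36% positive and 1.46% negative. An unadjusted p under 0.05 was found for 21 of 55 members and for 5384 of 16151 genes. At the adjusted p and any fold, 5 members (9.09%) had a positive and 7 (12.7%) a negative difference, where 9.21% and 7.05% of all genes did. Of the 52 initiation factors without the Argonautes, 5.77% had a positive and 13.5% a negative difference. Eif2ak2 rose more in the Tet2KD-labelled line, with a difference of 0.51 (SE 0.07, adjusted p = 0.014) and a 95% interval of 0.33 to 0.69. For Eif3f the difference was 0.53 (SE 0.09, adjusted p = 0.018) and for Eif3h 0.49 (SE 0.10, adjusted p = 0.034). For Ago4 it was 0.59 (SE 0.10, adjusted p = 0.019) and for Ago2 0.41 (SE 0.08, adjusted p = 0.027). Among the negative differences, Eif3j1 (-0.62, SE 0.09, adjusted p = 0.014), Eif3a (-0.40) and Eif5 (-0.42) fell in both lines and more in the Tet2KD-labelled line. Eif4g1 (-0.56, SE 0.12, adjusted p = 0.034), Eif4g2 (-0.52), Eif1a (-0.49) and Eif1ax (-0.37) fell in the Tet2KD-labelled line and did not pass in the Control line. The called genes Eif4e, Eif2s1, Eif4a3, Eif2b3 and Eif1ad did not pass here. Under an alternative the difference passed for Eif4e as the mean of its probes (-0.43, adjusted p = 0.02) and with the slide as a replicate block (-0.27, adjusted p = 0.032), for Eif2b3 as the mean of its probes (-0.35, adjusted p = 0.039), and for Eif1ad with quantile normalization (-0.30, adjusted p = 0.043). Over the 13 alternatives the adjusted p reached 0.6 for Eif4e, 0.69 for Eif2b3 and 0.64 for Eif1ad. The unadjusted 95% intervals were -0.49 to -0.05 for Eif4e, -0.63 to -0.06 for Eif2s1, -0.49 to -0.04 for Eif4a3, -0.48 to 0.02 for Eif2b3 and -0.48 to -0.06 for Eif1ad.

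The sign of all 12 differences was the same on each slide alone and under each of the alternatives run, while the size and the adjusted p were not steady. The 12 were chosen by a fit over these same arrays, so their agreement in sign was largely set in advance and is no separate support. The difference of inductions of Eif3h was 0.04 under normexp with quantile normalization and in the authors' deposited table, and 0.12 with quantile normalization of the processed signal. As the mean of their probes, Ago2 gave 0.17 and Eif3j1 -0.38, and neither passed. Of the 12, 5 passed under normexp with quantile normalization and in the authors' deposited table, 4 under normexp with 75th percentile scaling, and 9 with the mean of the probes. The share of all genes passing with the slide as a replicate block was not counted. With that block 19 members passed, 8 positive and 11 negative, these 12 among them. The 7 further genes were Eif2d, Eif3i and Eif3k, with positive differences, and Eif4e, Eif4g3, Eif4h and Eif5a, with negative ones. Scaled on the array median, or with no filter on dim probes, 0 of the 12 passed. Of the 12, 4 passed without Tet2KD 0 h replicate 1, 3 without Control 0 h replicate 2, 2 without Tet2KD 0 h replicate 2, 1 without Control 0 h replicate 1, and 0 without Control 24 h replicate 1 or 2 or Tet2KD 24 h replicate 1 or 2. Of these genes with 1 further kept probe, Ago4 gave 0.69 on it, Eif3h 0.48, Eif5 -0.35 and Ago2 -0.07. Eif3j1 had 2 further kept probes, given below, and both fell less in each line than the brightest probe. A fit without 1 array takes the lone array left in its group to vary like the others.

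**Figure D3:**
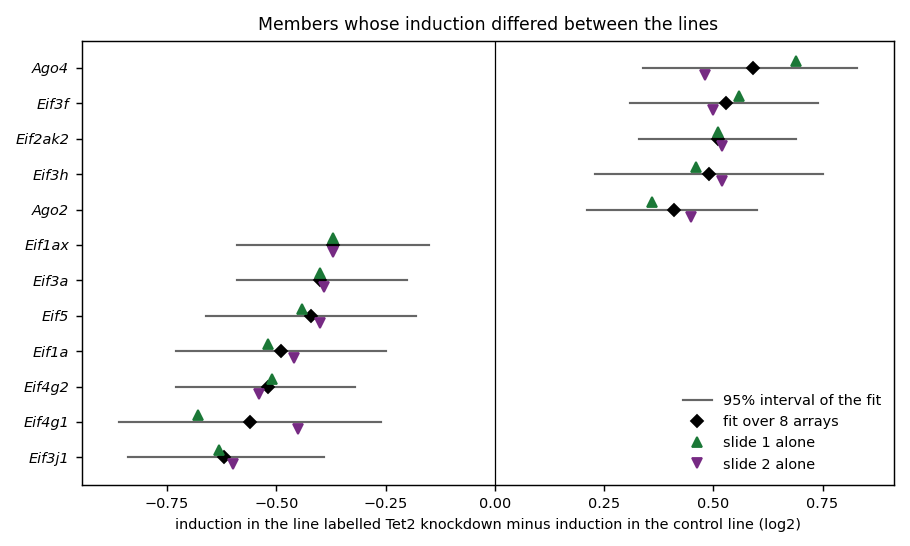
Induction in the Tet2KD-labelled line minus induction in the Control line (x axis, log2) for the 12 members that passed the adjusted p (rows); diamonds are the fit over 8 arrays with its 95% interval, triangles the values from slide 1 and slide 2 alone. The 5 positive members run from 0.41 to 0.59 and the 7 negative ones from -0.62 to -0.37. No slide value crosses 0, in genes chosen by the fit over the same arrays.

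Of 21 genes with several kept probes, 18 had the same sign of change on all of them in the Tet2KD-labelled line and 17 in the Control line. The exceptions were Ago1, Ago2 and Eif6 in the Tet2KD-labelled line and Ago2, Eif3k, Eif4e2 and Eif6 in the Control line. Probes of opposite sign both passed the adjusted p for Ago2 in both lines and for Eif4e2 in the Control line. The brighter Ago2 probe had 1.55 in the Tet2KD-labelled line and 1.14 in the Control line, and the dimmer one -0.63 in the Tet2KD-labelled line and -0.56 in the Control line. As the mean of both probes Ago2 gave 0.46 in the Tet2KD-labelled line and 0.29 in the Control line, and neither was called. The second Ago4 probe had 1.61 in the Tet2KD-labelled line and 0.92 in the Control line, close to the first. The second Ago1 probe was well above background on 1 of 2 arrays at 24 h in the Tet2KD-labelled line, where its log2 difference was 0.02. It was so on 0 of 2 arrays at 24 h in the Control line, where its fall has only a bound and was at least 1.14-fold. The dimmer Eif4e2 probe read 0.121 and 0.11 at 24 h against 0.214 and 0.237 at 0 h in the Tet2KD-labelled line, and 0.137 and 0.127 at 24 h against 0.182 and 0.169 at 0 h in the Control line, and fell in both lines, with -0.97 in the Tet2KD-labelled line and -0.41 in the Control line. The dimmer Eif1ad probe read 0.7 and 0.731 at 24 h against 3.36 and 3.21 at 0 h in the Tet2KD-labelled line. Control arrays read 0.755 and 0.771 at 24 h against 2.91 and 2.85 at 0 h. It had -2.20 in the Tet2KD-labelled line and -1.91 in the Control line, larger falls than on the brighter probe, though the difference between probes was not tested. The dimmer Eif4e probe read 0.333 and 0.302 at 24 h against 1.12 and 1.07 at 0 h in the Tet2KD-labelled line, and 0.385 and 0.375 at 24 h against 0.901 and 0.844 at 0 h in the Control line, with -1.78 in the Tet2KD-labelled line and -1.20 in the Control line. The second probe of Eif2b3 had -1.43 in the Tet2KD-labelled line and -0.97 in the Control line, and that of Eif2s1 -1.09 in the Tet2KD-labelled line and -0.64 in the Control line, both close to the first. Of the 2 further Eif4b probes, 1 had -0.93 in the Tet2KD-labelled line and -0.91 in the Control line, larger falls than on its brightest probe. The other is not described here beyond having no opposite sign in either line. Of the 2 further Eif3j1 probes, 1 had -0.59 in the Tet2KD-labelled line and -0.43 in the Control line and passed in both lines, and the other had -0.86 in the Tet2KD-labelled line and -0.49 in the Control line and passed in neither. As the mean of its probes the Tet2KD-labelled value was -0.87, short of 2-fold. Whether the probes of a gene see different transcript forms was not tested.

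**Figure D4:**
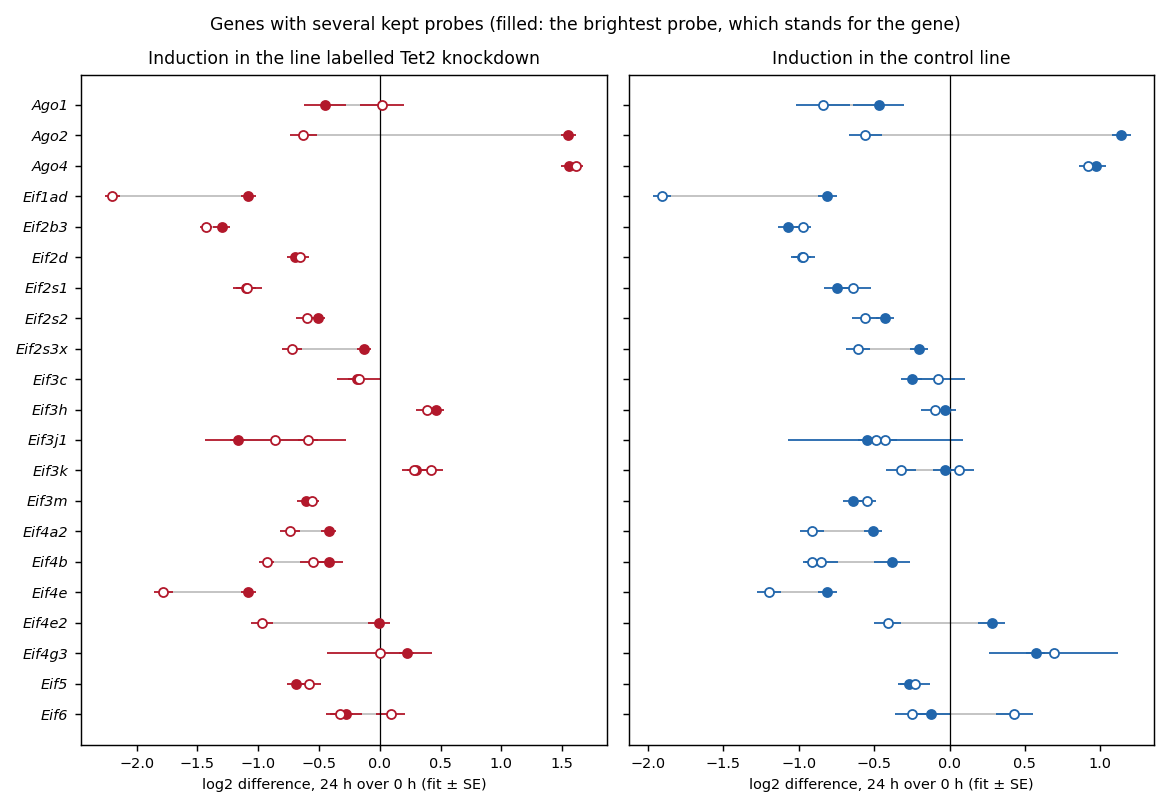
Log2 difference between 24 h and 0 h (x axes, bars of 1 SE) of every kept probe of the genes with several (rows), for the Tet2KD-labelled line (left) and the Control line (right); filled points are the brightest probe, which stands for the gene. The Ago2 probes lie on opposite sides of 0, at 1.55 and -0.63 on the left and 1.14 and -0.56 on the right; the open Ago1 point on the right was not well above background at 24 h.

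Genes that work with the initiation factors but carry other names were read from 6 lists. Of all genes tested, 16.7% were called higher and 15.4% lower in the Tet2KD-labelled line, and 14.2% and 13.1% in the Control line. At the adjusted p alone, 36.2% rose and 32% fell in the Tet2KD-labelled line, and 30.7% and 31.1% in the Control line. The lists are short, and none was tested as a set. Of 15 cap-binding partners and poly(A)-binding proteins, 5 were called lower and 0 higher in the Tet2KD-labelled line and 3 lower and 0 higher in the Control line. Pabpc4, whose product binds poly(A) tails, had log2 differences of -1.68 in Tet2KD-labelled cells and -1.61 in Control cells. Paip2b, a repressor of poly(A)-binding protein, had -1.74 in Tet2KD-labelled cells and -1.52 in Control cells, and Ncbp1, of the nuclear cap-binding complex, had -1.33 in Tet2KD-labelled cells and -1.05 in Control cells. Larp1 (-1.05 in Tet2KD-labelled cells and -0.58 in Control cells), which binds terminal oligopyrimidine mRNAs, and Larp4 (-1.07 in Tet2KD-labelled cells and -0.84 in Control cells) were called in the Tet2KD-labelled line. At the adjusted p alone 8 fell and 2 rose in each line, and the list's median was -0.32 in the Tet2KD-labelled line and -0.35 in the Control line.

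Of 18 genes of mTORC1 and MNK signalling to the cap, 4 were called higher and 1 lower in the Tet2KD-labelled line and 3 higher and 1 lower in the Control line. The MNK kinases, which phosphorylate eIF4E, moved apart: Mknk1 had 1.94 in Tet2KD-labelled cells and 1.55 in Control cells and Mknk2 -1.20 in Tet2KD-labelled cells and -1.09 in Control cells. Ddit4, a brake on mTORC1, read 38.8 and 40.3 at 24 h against 20.6 and 10.3 at 0 h in the Tet2KD-labelled line, and 56.3 and 89.8 at 24 h against 10.6 and 11.7 at 0 h in the Control line. Its duplicates stood far apart at 0 h in the Tet2KD-labelled line and at 24 h in the Control line, and its log2 differences were 1.44 in Tet2KD-labelled cells and 2.67 in Control cells. Sesn2, another brake on mTORC1, had 1.57 in Tet2KD-labelled cells and 1.61 in Control cells. Castor1 was not well above background at 0 h in the Tet2KD-labelled line and was at least 2.3-fold higher at 24 h. At the adjusted p alone 6 rose and 5 fell in the Tet2KD-labelled line and 4 rose and 3 fell in the Control line, with medians near 0, at 0.01 in the Tet2KD-labelled line and 0.04 in the Control line. Of the 18 genes, Ddit4 included, 0 had a difference of inductions at the adjusted p, and the lowest value was -1.24.

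Of 14 genes of the integrated stress response around eIF2, 3 were called higher and 1 lower in the Tet2KD-labelled line and 4 higher and 0 lower in the Control line. Cebpb, a C/EBP family gene that this pathway can induce, was 8.59-fold higher in Tet2KD-labelled cells and 8.09-fold higher in Control cells. Chac1 (1.79 in Tet2KD-labelled cells and 1.30 in Control cells) and Atf3 (1.71 in Tet2KD-labelled cells and 1.16 in Control cells), targets of the pathway, were called in both lines. Atf4, its central factor, had -0.33 in Tet2KD-labelled cells and -0.67 in Control cells and fell in both. Dnajc3 (0.34 in Tet2KD-labelled cells and 1.25 in Control cells), an inhibitor of PKR and PERK, was called in the Control line, and Metap2 (-1.12 in Tet2KD-labelled cells and -0.68 in Control cells), which shields eIF2 from phosphorylation, in the Tet2KD-labelled line. Ddit3, a stress factor, rose by less than 2-fold in the Tet2KD-labelled line (log2 difference 0.96, adjusted p = 0.00032), and its difference of inductions was 0.75 (SE 0.14, adjusted p = 0.023). Of the 14 genes, 5 had a positive and 1 a negative difference of inductions at the adjusted p, and the lowest value was -0.92. At the adjusted p alone 7 rose in each line, and 3 fell in the Tet2KD-labelled line and 5 in the Control line.

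Of 12 elongation, termination and hypusine genes, 4 were called lower in the Tet2KD-labelled line and 3 in the Control line, and 0 higher in either. Eef2k, the kinase that inhibits elongation factor 2, had -1.12 in Tet2KD-labelled cells and -1.27 in Control cells. Eefsec, for selenocysteine, had -1.12 in Tet2KD-labelled cells and -1.13 in Control cells, Eef1e1, of the tRNA synthetase complex, -1.54 in Tet2KD-labelled cells and -1.06 in Control cells, and the release factor gene Gspt1 -1.07 in Tet2KD-labelled cells and -0.78 in Control cells. Eef2 itself had 0.51 in Tet2KD-labelled cells and -0.13 in Control cells, and its difference of inductions was 0.64 (SE 0.09, adjusted p = 0.014). Of the 12 genes, 1 had a positive and 2 a negative difference of inductions at the adjusted p, and the lowest value was -0.7. Eef1a2 and Gspt2 were not well above background. Of 6 recycling and alternative initiation genes, 1 was called: Abce1, which splits the ribosome, had -1.29 in Tet2KD-labelled cells and -0.83 in Control cells and was called lower in the Tet2KD-labelled line. Of 9 Argonaute partners, 4 were called lower and 1 higher in the Tet2KD-labelled line and 1 lower and 0 higher in the Control line. The export factor Xpo5 had -1.64 in Tet2KD-labelled cells and -1.12 in Control cells, the microRNA processing genes Dgcr8 -1.32 in Tet2KD-labelled cells and -0.79 in Control cells, Drosha -1.06 in Tet2KD-labelled cells and -0.88 in Control cells and Dicer1 -1.02 in Tet2KD-labelled cells and -0.78 in Control cells, and the helicase gene Mov10 1.57 in Tet2KD-labelled cells and 0.63 in Control cells. Mov10 rose more in the Tet2KD-labelled line, with a difference of inductions of 0.94 (SE 0.11, adjusted p = 0.0085). Of the 9 partners, 1 had a positive and 2 a negative difference of inductions at the adjusted p.

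**Figure D5:**
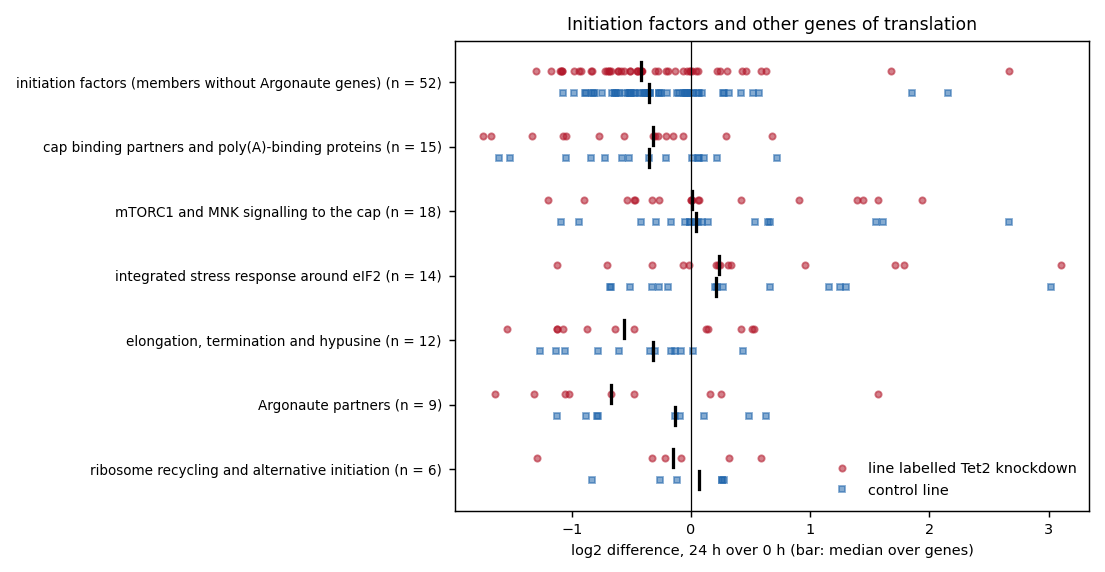
Log2 difference between 24 h and 0 h (x axis) of each tested gene in the 52 initiation factors and the 6 lists of partner genes (rows), with red circles for the Tet2KD-labelled line, blue squares for the Control line and black bars at the median. The median of the initiation factors is -0.42 in the Tet2KD-labelled line and -0.35 in the Control line, and Cebpb in the stress response list lies farthest right in each line, at 3.02 in the Control line.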

How the data were processed

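Expression in 4 groups of C10 cells was measured on 8 one-colour Agilent arrays, 2 per group. The intensity values are the processed signals deposited by the authors, which Feature Extraction 10.7.3.1 had background-subtracted, per the file headers. The authors also deposited a table of log2 values whose column medians are all 6.84 and which matches (correlation 1 on every array) normexp with offset 50 followed by quantile normalization, recomputed from the scanner files. The submitters' processing notes name limma.

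From the processed signals, the 75th percentile of the non-control spots of the same array was subtracted on the log2 scale, and spots of a probe were averaged without outlier-marked ones. Probes entered the tests when some group had both of its arrays well above background, and each gene was represented by its brightest such probe on average. An accession gave the current name of 11618 tested genes, a symbol that of 580 and a synonym that of 89, while 3864 kept the name in the files. Differences were tested 2-sided with limma 3.58.1 in R 4.3.3, as contrasts of 4 group means with empirical Bayes variances. P-values were adjusted by the Benjamini-Hochberg method over all genes tested. A gene was called at adjusted p under 0.05 with at least a 2-fold difference, and "rose", "fell" and "passed" mean adjusted p under 0.05 at any fold.

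The replicate number is the slide on which the array lay, per the file headers. Same-numbered arrays deviated together from their group means, with correlations from 0.3 to 0.41 over the 6 pairs of groups, so a fit with the slide as a block was run as well. Alternatives covered the scaling, background correction, dim-probe filter, choice of probe, gene names, variance model, deposited table and each array left out. The fit was tested on simulated data. Values are given for the members called and for the initiation factors by role, and for other genes of the pathway where they were called. Atf4, Ddit3 and Eef2 are given though they were not called. The members and the lists were chosen with earlier results of these data known. The number of arrays limits the precision.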

Additional observations from a re-analysis of the deposited data

Results flagged for a closer look

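The change over 24 h of induction differed between the Tet2KD-labelled and the Control line for 12 of the 55 genes, by the limma test of the difference of the 2 inductions (Tet2KD-labelled minus Control, adjusted p under 0.05 over all genes). The difference was positive for 5 genes. It was 0.59 on the log2 scale for Ago4, 0.53 for Eif3f, 0.51 for Eif2ak2, 0.49 for Eif3h and 0.41 for Ago2. It was negative for the other 7, at -0.37 for Eif1ax, -0.4 for Eif3a, -0.42 for Eif5, -0.49 for Eif1a, -0.52 for Eif4g2, -0.56 for Eif4g1 and -0.62 for Eif3j1. The adjusted p-values lay between 0.014 for Eif2ak2 and Eif3j1 and 0.047 for Eif1ax, and none of the 12 differences reached 2-fold. Each of the 12 failed to pass when some single array was left out, with a highest adjusted p of 0.1 among the positive and 0.13 among the negative ones.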

How the results depend on the processing

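No gene called at 2-fold changed direction under an alternative or lost its call on leaving out an array. Each alternative read a gene by its brightest probe or by the mean of its probes, so a reversal on another probe could not appear. The dimmer Ago2 probe fell in both lines, where the brighter one was called higher. Of smaller changes that passed, 3 changed sign: Eif3k in the Tet2KD-labelled line was -0.02 under normexp with quantile normalization and in the deposited table, Eif4g3 in the Tet2KD-labelled line was -0.03 when scaled on the array median, and Eif4e2 in the Control line was -0.07 as the mean of its probes. With no fold minimum, the numbers of genes passing were 39 for the induction in the Control line, 41 for the induction in the Tet2KD-labelled line, 10 between lines at 0 h, 7 between lines at 24 h and 12 for the difference of inductions. Scaling on the array median moved the median log2 difference of the 55 genes to -0.68 for the Tet2KD-labelled induction, -0.45 for the Control induction, 0.18 at 0 h, -0.09 at 24 h and -0.22 for the difference of inductions. The median moved to -0.51, -0.41 and -0.14 for the Tet2KD-labelled induction, the Control induction and their difference under quantile normalization. It moved to -0.48 in the Tet2KD-labelled and -0.43 in the Control line both with normexp and quantile normalization and in the deposited value table, and to -0.41 in the Control line when scaled on probes detected on all arrays. Leaving out single arrays gave Control medians from -0.36 to -0.28 and 4 to 5 genes called there, against 10 to 12 in the Tet2KD-labelled line. Averaging the probes of a gene took Ago2 below the 2-fold call at 0.46 and 0.29 in the Tet2KD-labelled and Control lines, and Eif3j1 to -0.87 in the Tet2KD-labelled line. Eif4e3 reached 0.91 in the Control line with normexp and quantile normalization, and likewise in the deposited table. With the replicate block, which pairs arrays by slide, the 2-fold calls stayed at 10 for the Tet2KD-labelled induction, 4 for the Control induction and 0 for the other 3 comparisons. Genes passing at any fold with the block were 11 higher and 35 lower for the Tet2KD-labelled induction, 10 and 33 for the Control induction, 11 and 5 at 0 h, 5 and 4 at 24 h, and 8 and 11 for the difference of inductions. These are counts of members, and the share of all genes passing with the block was not counted. Differences within slide 1 and within slide 2, an alternative chosen after seeing the data, carry no test. The cause was not tested.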
